A study of Mus musculus with 90 samples.

Results

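Caloric restriction in wild-type (WT) mouse liver at ZT12 was measured in 6 livers, 3 from restricted mice (CR mice 1 to 3) and 3 from controls (control mice 1 to 3). They are all the libraries of their count table, placed in groups by the genotype, diet and time in their labels, and they make up 6 of the 90 libraries of the series. The series asks how the glucocorticoid receptor of the liver takes part in the response to restriction, and these libraries contrast the diets in mice with an intact receptor. All mice were C57BL/6J males that entered the protocol at 12 weeks of age and lived in single cages. Restricted mice had their food lowered in weekly steps down to a 40% restriction, which was then held, and received it at ZT12, the start of the dark phase (6 pm). Control mice ate ad libitum until the last week, when their food was offered only in the dark, from ZT12 to ZT0. The paper infers from gas exchange that restricted mice ate as soon as food was offered. Time since the last meal may therefore differ between the diets at sampling, and its part was not tested. The titles of the control libraries carry AL, while their diet label gives night-restricted feeding. A further 7 WT livers of the same time of day, 3 restricted and 4 control, come from a time series in GR fl/fl mice that carry no Cre. They allow a side-by-side look at restriction and control feeding, with NRF in place of AL in the control titles. There the 2 diets stand in separate tables, so diet and table cannot be told apart.

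The 6 libraries held 36442195 to 39492146 estimated counts each, and the 10 most abundant genes took 24.4% to 25.9% of them on restriction and 18.9% to 19.6% in controls. Rank correlations over genes lay between 0.986 and 0.993 within a diet and between 0.939 and 0.964 across diets, and the first principal component, with 69.6% of the variance, separated the diets while the second held 9.34%. No pair of libraries of the same diet was alike to within counting noise (chi-square per degree of freedom 25.2 to 63.4). Hepatocyte markers were high in each liver: the 7 marker genes summed to between 99478 and 106357 CPM (counts scaled to a common library size after TMM normalisation) in controls and between 169625 and 178984 CPM on restriction, and most of this was albumin (Alb), which stood at 128523, 131270.0 and 134653 CPM in the restricted mice against 63958, 66231 and 68929.9 in controls. Values of single mice are listed in the order of their numbers. Alb was thus about 2-fold higher in every restricted mouse than in any control (log2 fold change 0.99 ± 0.07 SE, adjusted p = 0.000154). The Y-linked Ddx3y, chosen outside the rule for named genes as a check of the male label, lay at 51.2, 59.5 and 56.9 CPM in controls and 56.4, 46.6 and 40.1 on restriction, and was present in each library. The 7 T and NK cell markers were all under 1 CPM, as were the 6 neutrophil markers and the 10 exocrine pancreas markers, 7 of which had no count. A count of 0 is not read as absent expression, for the reason given with Sirt5 below.

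Restriction moved a large part of the liver transcriptome in both directions. Of 13062 genes with enough counts to test, 47.1% passed an adjusted p of 0.05, 23.5% higher and 23.6% lower on restriction, and the median log2 fold change over all tested genes was 0.00. With library totals as the only scaling that median shifted by -0.12 and 6300 genes were called, 2226 (35.3%) higher and 4074 (64.7%) lower, against 3073 (49.9%) and 3082 (50.1%) with TMM scaling. These shares are the background for each count of list members. Members and lists were chosen with earlier results of these data known, so part of any excess over these shares may come from that choice. Of the 7 hepatocyte markers 4 were higher and 1 lower, the latter being Serpina1c, an antitrypsin (-0.92), and the other 2 did not pass the test.

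Mouse liver is a sexually dimorphic organ. Growth hormone reaches the male liver in pulses and the female liver more evenly, and hepatocytes read the pattern through STAT5b and the repressors BCL6, dominant in males, and CUX2, restricted to females. Male hepatocytes thereby secrete major urinary proteins, which carry pheromones, and express their own set of P450 enzymes, while female hepatocytes express other P450s.

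On restriction the male livers lost most of the male pattern and gained transcripts of the female one. Of 24 male-biased genes tested, 23 fell and none rose, with a median log2 fold change of -4.66, or -5.72 without CR mouse 1. The exception was Gstp2, a glutathione transferase named because it stands alone, at -0.96 (adjusted p = 0.417) here and -2.93 in the time series. Of 20 female-biased genes tested, 17 rose and 1 fell, with a median of 3.54, or 4.25 over genes with a mean of at least 1 CPM. The gene that fell was Ntrk2, a neurotrophin receptor at low level in liver (-1.82), and both genes were picked out after their values were seen.

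Mup20 (darcin, chr4:62050234-62054158, minus strand), the major urinary protein that makes male urine attractive to females, stood at 176, 85.0 and 139 CPM on restriction and 13108, 8694 and 10579.7 CPM in controls. No restricted mouse came within an order of magnitude of a control, and the log2 fold change was -6.34 ± 0.33 (adjusted p = 7.45e-05). Hsd3b5 (chr3:98618634-98630252), a male-liver steroid dehydrogenase, was at 3.75, 0.338 and 0.628 CPM in the restricted mice against 247, 177 and 275 in controls. The diets did not overlap, and CR mouse 1 kept more of the transcript than the other restricted mice, so that the log2 fold change of -7.23 became -8.91 without it. The same mouse held the most Cyp4a12a (-7.92, -9.18 without it), a male hydroxylase of fatty acids, and the most Slco1a1, an organic anion transporter, at 509.6, 489 and 592 CPM in controls and 49.8, 5.06 and 9.51 on restriction (-4.63, -6.18 without CR mouse 1). Cyp7b1, the oxysterol 7α-hydroxylase, fell by 2.97 and Cyp2d9, a steroid 16α-hydroxylase, fell by 2.92 on the log2 scale. Of the 31-base words in their transcripts, Cyp4a12a shares 62.2%, Cyp2d9 34.8% and Hsd3b5 34.1% with other genes. Of further major urinary protein genes, Mup11 fell by 7.11, and Mup19, named by its size of change and not in the list, fell by 8.15. The transcripts of Mup20, Mup11 and Mup19 share 64.5%, 83.3% and all of their 31-base words with other genes, so that the split of reads within the family is uncertain. Without CR mouse 1, Mup19 was at -8.74.

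Among the female-biased genes, Cux2 (chr5:121856366-122050102), the female-liver repressor, stood at 14.6, 23.9 and 26.0 CPM on restriction and 0.526, 0.497 and 0.659 CPM in controls, without overlap (5.26 ± 0.28, adjusted p = 7.66e-05). Cyp17a1, the 17α-hydroxylase of steroid synthesis, was at 71.0, 131 and 118 CPM in the restricted mice against 5.61, 14.0 and 31.3 in controls, and its log2 fold change of 2.66 rose to 3.45 without control mouse 3, the highest control. Nipal1, a magnesium transporter, rose by 5.74. Cyp2c40, a P450 that acts on arachidonic acid, rose by 5.42 and by 4.64 without CR mouse 2, the highest of its group, and 72.6% of its 31-base words occur in another gene.

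Some of the largest changes fell outside every list. Slc22a26 and Slc22a27, organic anion transporters, rose by 5.91 and 5.71, and Slc22a26 by 6.91 without control mouse 2. Slc22a27 shares 46.9% of its 31-base words with another gene. Fam107a, a stress-responsive actin-binding protein, was at 0.226, 0.183 and 0.343 CPM in controls and 15.7, 15.5 and 11.6 on restriction (5.82), and Pdgfrl, which resembles a growth factor receptor, rose by 5.37. Serpina4-ps1, a pseudogene of the serpin cluster, fell from a control mean of 368 to 1.22 CPM (-8.24 ± 0.25).

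**Figure D1:**
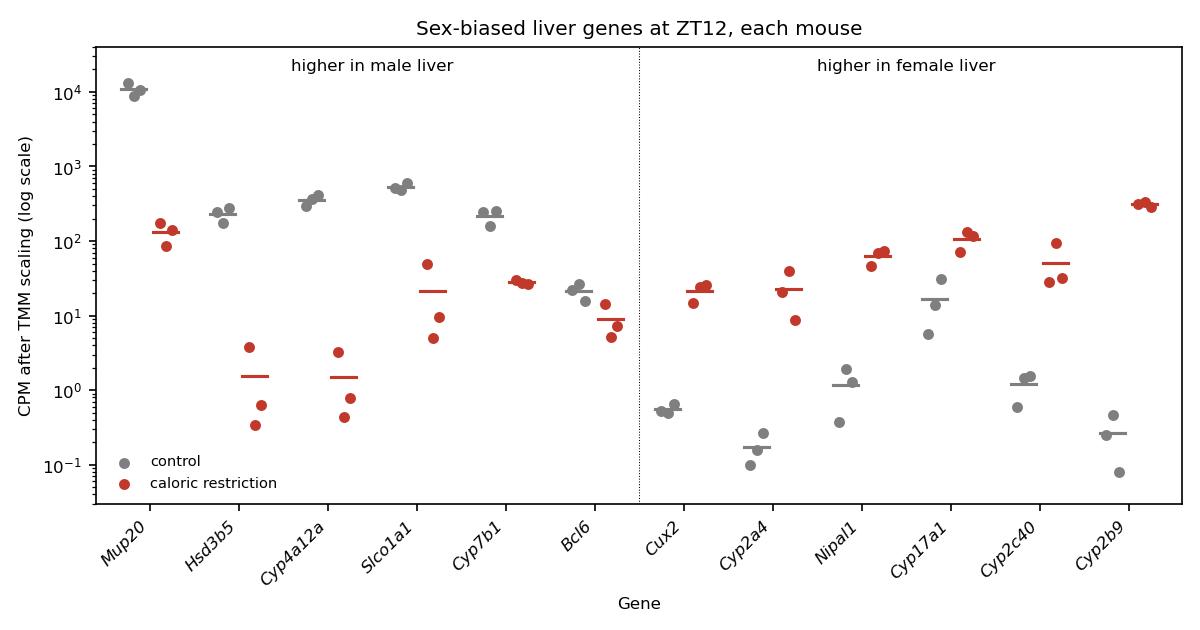
Level of 12 sex-biased liver genes in each mouse, in CPM after TMM scaling on a log axis, with grey points for control and red points for caloric restriction (n = 3 mice each) and lines at the group means. The 6 genes on the left, known to be higher in male liver, were lower on restriction, and the 6 on the right, known to be higher in female liver, were higher, with no overlap between diets for any of the 12.

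Genes of the growth hormone and IGF1 axis moved less. Of 14 tested, 2 rose and 5 fell (median -0.16). Ghr, the growth hormone receptor, was at 415, 326 and 306 CPM on restriction and 608, 625 and 689 CPM in controls, lower in every restricted mouse (-0.88, adjusted p = 0.00168), and Igfals, the acid-labile subunit that keeps IGF1 in the circulation, fell by 1.19. Igf1 itself was at 583, 578 and 584 CPM in the restricted mice against 644, 617 and 820.4 in controls, and its log2 fold change of -0.25 did not pass the test (adjusted p = 0.107), but was called at -0.37 with library totals. Igfbp1, a binding protein that holds IGF1 away from its receptor, stood at 32.8, 39.8 and 13 CPM in controls and 748, 768 and 1435 on restriction and rose by 5.11 ± 0.49. Onecut1 (HNF6), a liver transcription factor that growth hormone sustains, fell by 2.70 and shares 53.0% of its 31-base words with another gene. Bcl6 was at 14.3, 5.19 and 7.35 CPM on restriction and 21.9, 26.7 and 15.7 CPM in controls, without overlap between diets, but its fall of -1.26 lost its call without CR mouse 2 or 3 or control mouse 1 or 2 (-0.98 to -1.25). Cish, a cytokine feedback inhibitor, fell by 1.22 and lost the call in 4 of the 6 fits without a mouse (-1.01 to -1.14), and Socs2, a related inhibitor, was at -0.21 (adjusted p = 0.702).

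Fat-burning genes did not rise as a block. Of 25 genes of mitochondrial fat oxidation and ketogenesis, 1 rose and 8 fell (median -0.17), a called share of 36% against 47.1% of all genes tested. The gene that rose was Ppargc1a, the coactivator PGC-1α, at 64.4, 57.1 and 72.2 CPM in the restricted mice against 16.2, 17.4 and 16.8 in controls (1.94, adjusted p = 6.40e-05). Cpt1a, the gate of fatty acids into mitochondria, fell by 0.45, Bdh1, which makes 3-hydroxybutyrate, fell by 1.42, and Slc27a2, which activates very long-chain fatty acids, fell by 0.68. The targets of PPARα were split, with 8 of 24 higher and 6 lower (median 0.31), or 8 and 8 under library totals. Cyp4a14, a microsomal fatty acid ω-hydroxylase, was at 116, 135 and 58.8 CPM in controls and 1515, 3092 and 2913 on restriction and rose by 4.60. Acot3, a peroxisomal thioesterase, rose by 2.63, while Vnn1, a pantetheinase, fell by 1.71 and Cidec, a lipid droplet protein, fell by 1.73. Pdk4, the kinase that shuts off pyruvate dehydrogenase, was at 44.9, 62.8 and 262 CPM on restriction and 2.36, 2.83 and 2.85 CPM in controls. Each restricted mouse was far above the controls, and CR mouse 3 lifted the log2 fold change to 5.53 from 4.34 without it. Ppara had a log2 fold change of 0.19 (adjusted p = 0.183) and Fgf21, the fasting hormone it controls, one of 0.38 (adjusted p = 0.523).

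Of 51 peroxisomal genes 25 fell and 6 rose (median -0.28). Nudt7 (chr8:114133557-114154739), a peroxisomal hydrolase of coenzyme A, was at 50.6, 34.5 and 34.0 CPM in the restricted mice against 839.9, 773 and 882 in controls, with all 3 restricted mice far below the lowest control (-4.39 ± 0.18, adjusted p = 3.33e-05). Pex26 and Pex11g, which serve protein import and division of the organelle, fell by 1.53 and 1.21. Against this direction Pex11a, which drives the multiplication of peroxisomes, rose by 0.75.

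In lipogenesis 8 of 24 genes rose and 3 fell (median 0.14), a called share near that of all genes, and with library totals as the only scaling 6 rose and 7 fell, and 7 genes in all were called without CR mouse 2, CR mouse 3 or control mouse 2 against 11 with every mouse. Fasn, the fatty acid synthase, was at 61.9, 65.7 and 74.6 CPM in controls and 133, 112 and 105 on restriction (0.79) and Acaca, which makes its malonyl-CoA, rose by 0.62. Lpin1 and Lpin2, phosphatidate phosphatases of triglyceride synthesis, rose by 1.81 and 1.48. Thrsp, a lipogenic nuclear protein, fell by 1.36, a call lost without CR mouse 2 or 3 or control mouse 2 or 3 (-1.08 to -1.29) and more than 1.5 times larger in fold without CR mouse 1 (adjusted p = 0.000704). Srebf1, the master regulator of fatty acid synthesis, fell by 0.50, which likewise fell short in 4 of 6 fits without a mouse (-0.41 to -0.47). Scd1, the stearoyl-CoA desaturase, was at 0.28 (adjusted p = 0.345) and was called at 0.51 without CR mouse 1.

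Sterol genes leaned higher, with 12 of 26 higher and 3 lower (median 0.29), or 11 and 6 under library totals. Insig1, which retains the sterol-sensing complex in the endoplasmic reticulum, stood at 213, 233 and 309 CPM on restriction and 99.9, 79.5 and 119 CPM in controls (1.34 ± 0.19), and the related Insig2 rose by 1.23, while Sqle, the squalene epoxidase, was at -0.05 (adjusted p = 0.823). Bile acid genes went both ways (7 of 28 higher, 10 lower, median -0.09). Cyp7a1, the rate-limiting enzyme of their synthesis, fell by 1.23, and Cyp8b1, which sets the share of cholic acid, was at 114, 35.1 and 29.5 CPM in the restricted mice against 273, 324 and 169 in controls; its fall of -2.10 lost the call without CR mouse 2 (-1.83) or control mouse 2 (-1.90) and was -2.98 without CR mouse 1. Slco1a4, a bile acid and drug importer, rose by 2.32. Of 22 lipoprotein genes 10 rose and 2 fell (median 0.26), among them Apoa5, a plasma triglyceride regulator (0.50), Lipg, the endothelial lipase (1.15), and Lpl, the lipoprotein lipase (-1.12).

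Of 12 gluconeogenic genes 5 rose and 2 fell (median 0.30). G6pc, the glucose-6-phosphatase that releases glucose, was at 475, 610.4 and 551 CPM in controls and 1196, 1050.1 and 1539 on restriction (1.21), and Pck1, the phosphoenolpyruvate carboxykinase, rose by 1.43. Got1, the cytosolic aspartate transaminase, rose by 1.75, while Fbp1, the bisphosphatase between them, was at 0.02 (adjusted p = 0.802) and Pcx, pyruvate carboxylase, at -0.48 (adjusted p = 0.149). In glycolysis and pyruvate use 10 of 22 genes rose and 7 fell (median 0.25), but 7 rose and 7 fell under library totals, and 9 in all were called without control mouse 1. Tpi1, the triose isomerase, fell by 1.18, and Pfkfb3, an activator of phosphofructokinase, by 0.82. Khk, the fructokinase, rose by 0.48. Glycogen genes were divided, with 2 of 13 higher and 4 lower (median -0.09), or 3 and 3 without CR mouse 3. Gys2, the liver glycogen synthase, fell by 0.73, but Ppp1r3g, a glycogen-targeting phosphatase subunit that rises on fasting, was at 23.6, 18.3 and 52.1 CPM on restriction and 3.56, 2.23 and 1.61 CPM in controls and rose by 3.66.

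In the urea cycle 6 of 8 genes rose and none fell (median 0.84). Ass1, argininosuccinate synthase, was at 4619, 4996 and 5829 CPM in the restricted mice against 1829, 2007 and 2564 in controls (1.27) with 43.1% of its 31-base words found in other genes, Asl, the lyase that follows it, rose by 1.21, and Cps1, the entry enzyme, by 1.06. Each of these was higher in every restricted mouse than in every control. Of 34 amino acid catabolic genes 12 rose and 3 fell (median 0.19), a called share near that of all genes, and under library totals 11 rose and 10 fell. Tat, tyrosine aminotransferase, stood at 821, 781 and 1104 CPM in controls and 6616, 6094 and 8419 on restriction, with no overlap (2.96 ± 0.18, adjusted p = 0.000122). Acmsd, which diverts tryptophan from NAD synthesis, rose by 2.19, Gldc, the glycine decarboxylase, by 1.81, and Aass, of lysine breakdown, by 0.92. Hal, histidase, was at 0.25 (adjusted p = 0.317).

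In the methionine cycle 8 of 16 genes were higher and 1 lower (median 0.24). Mat1a, which makes S-adenosylmethionine, rose by 0.75, Gnmt, which spends it, by 0.68, and Cth, the last enzyme of cysteine synthesis, by 1.22. Nnmt, which methylates nicotinamide, rose by 1.81. Bhmt, the betaine methyltransferase, was scattered at 1725, 550.3 and 247 CPM on restriction and 1563, 2712 and 1424 CPM in controls (log2 fold change -1.18, adjusted p = 0.173), and without CR mouse 1 it was called at -2.25. Of 15 serine synthesis and amino acid stress genes 6 rose and 1 fell (median 0.28), with Vldlr, a lipoprotein receptor that ATF4 can induce, higher by 2.64 from a control mean of 1.28 CPM. Asns, the asparagine synthetase that marks the ATF4 response, was at -0.59 (adjusted p = 0.326), Trib3, a pseudokinase of the same response, at 0.65 (adjusted p = 0.0645, but called with DESeq2, with the replicate block and, at 0.81, without CR mouse 3) and Psat1, of serine synthesis, at -0.47 (adjusted p = 0.213). Of 14 amino acid transporters 7 rose and 1 fell (median 0.36), 7 and 4 under library totals and 5 in all without control mouse 2, among them Slc16a10, an exporter of aromatic amino acids (1.47), and Slc38a2, a glutamine importer (1.17).

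Drug-metabolising genes were reshuffled. In a list of 26 genes, further P450s and their reductase Por, 11 rose and 8 fell (median 0.20). Cyp2u1, a fatty acid hydroxylase, was at 3.32, 1.87 and 2.62 CPM in the restricted mice against 31.6, 22.3 and 25.9 in controls (-3.36), Cyp1a2, of caffeine clearance, fell by 1.78, Cyp3a11, the main pregnane-inducible P450, rose by 1.03, and Cyp26a1, which clears retinoic acid, rose by 1.65. Cyp39a1, an oxysterol hydroxylase, rose by 3.20. Por, the reductase that feeds electrons to all microsomal P450s, rose by 1.16, from 607 to 1358 CPM on average. Conjugation enzymes were balanced at 12 higher and 10 lower of 32 (median 0.04), and at 10 and 12 with library totals as the only scaling. The median turned to -0.08 there and to -0.03 without control mouse 1, and without CR mouse 1 the counts were 11 and 11. Sult1e1, the estrogen sulfotransferase, was at 0.125, 0.314 and 0.0527 CPM in controls and 9.02, 6.70 and 5.05 on restriction and rose by 5.37, or by 6.22 without control mouse 2. Sult1d1, a related sulfotransferase, rose by 2.16 and Ugt2b35, a glucuronosyltransferase, fell by 2.06. Antioxidant and NRF2 targets showed 6 of 27 higher and 3 lower (median -0.06), with 4 higher and 10 lower under library totals and 5 called in all without CR mouse 2. Srxn1, sulfiredoxin, fell by 1.58 while Hmox1, heme oxygenase, rose by 1.20. Of 25 nuclear receptors 6 rose and 5 fell (median 0.14), 6 and 7 under library totals and 5 and 5 without control mouse 1 or 3. Esr1, the estrogen receptor, rose by 1.26, Pparg fell by 1.33, Nr1h4, the bile acid receptor FXR, fell by 0.49, and Nr1i2, the pregnane receptor, rose by 0.42.

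In the list of the glucocorticoid receptor, related genes and its classical targets, 15 of 22 genes were higher and 3 lower (median 0.86). Those lower were Srd5a1 (-2.04), Nr3c2 (-1.60) and Arrdc3 (-1.25). Fkbp5, a chaperone that damps the receptor, was at 313, 377 and 302 CPM on restriction and 46.0, 58.1 and 88.9 CPM in controls (2.36 ± 0.24), Zbtb16, a zinc-finger repressor, rose by 2.11, Tsc22d3 (GILZ), an anti-inflammatory target, by 1.92, and Sgk1, a kinase, by 1.52. Dusp1, a phosphatase of stress kinases, was at 32.3, 46.8 and 81.6 CPM in the restricted mice against 6.47, 5.73 and 10.3 in controls and rose by 2.84. Hsd11b1, which regenerates active corticosterone inside hepatocytes, rose by 0.81. The receptor transcript itself (Nr3c1) was at 88.7, 90.3 and 95.7 CPM in controls and 84.3, 88.4 and 86.6 on restriction, a log2 fold change of -0.08 (adjusted p = 0.317, but called at -0.20 with library totals). The metallothioneins Mt1 and Mt2, also glucocorticoid and zinc targets, did not join the rise, at -0.58 (adjusted p = 0.29) and -1.16 (adjusted p = 0.0963), with control mouse 3 at 29.4 CPM of Mt1 against 96.9 and 100.5 in the others. Without that mouse both were called lower, at -0.97 and -1.56.

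Secreted defence proteins went in both directions. Of 30 acute phase genes 13 rose and 5 fell (median 0.31). Saa1, serum amyloid A, was at 8.26, 4.44 and 3.99 CPM on restriction and 21.6, 37.6 and 18.8 CPM in controls (-2.23) and shares 46.8% of its 31-base words with another gene, Steap4, a metalloreductase, fell by 1.68, and Lbp, which hands lipopolysaccharide to its receptor, rose by 1.04. Complement and coagulation genes counted 9 higher and 12 lower of 31, or 4 and 13 under library totals, with a median of 0.04 that turned to -0.08 there and to -0.07 without CR mouse 1. C8a, a chain of the membrane attack complex, was at 88.5, 42.2 and 31.2 CPM in the restricted mice against 750.4, 617 and 752 in controls (-3.71 ± 0.39, adjusted p = 0.000524), its neighbour C8b on chromosome 4 fell by 2.82, and C9, which forms the pore, fell by 2.58. C3, the hub of the cascade, rose by 0.97.

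Interferon-stimulated and antigen presentation genes fell together, 27 of 36 lower and none higher (median -1.12). Isg15, a ubiquitin-like modifier, was at 10.7, 8.38 and 6.56 CPM in controls and 1.65, 1.58 and 1.09 on restriction (-2.57 ± 0.24), Ifit1, a sensor of viral RNA, at 2.61, 1.77 and 1.58 CPM on restriction and 13.7, 13 and 10.9 CPM in controls (-2.66), and Oasl1, a regulator of antiviral translation, fell by 2.74. Controls were higher in each case with no overlap. Psmb9, a subunit of the immunoproteasome, fell by 2.83, and Irf7, a driver of the response, was at -0.34 (adjusted p = 0.212) and was called at -0.64 without CR mouse 2. The fall was smaller in the time series, where 15 genes of the list were lower and 1 was higher (median -0.52). Of the 26 called here and tested there, 22 had the same sign.

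Many promoters of these genes hold the same motif. RefSeq gives promoter windows of 300 bases (250 before to 50 after the gene start, GRCm38.p6) for 30 of the 37 listed genes, 36 windows in all, and 16 of them (44.4%) hold GAAANNGAAA on either strand, the core of the interferon-stimulated response element, against 1131 of 32851 windows of all genes (3.44%). The list holds known interferon-stimulated genes, so its higher share of the motif may follow from that choice and does not bear on restriction. The 15 genes with the motif included 10 that fell, and the 15 without it 11. The windows of Isg15 (chr4:156200769-156201068, minus strand) and Ifit1 (chr19:34640639-34640938, plus strand) are shown because both genes fell with little spread, with the motif in capitals. The matches begin at -78, -72 and -66 in Isg15, overlapping each other, and at -104 and -85 in Ifit1, counted from the gene start.
Isg15: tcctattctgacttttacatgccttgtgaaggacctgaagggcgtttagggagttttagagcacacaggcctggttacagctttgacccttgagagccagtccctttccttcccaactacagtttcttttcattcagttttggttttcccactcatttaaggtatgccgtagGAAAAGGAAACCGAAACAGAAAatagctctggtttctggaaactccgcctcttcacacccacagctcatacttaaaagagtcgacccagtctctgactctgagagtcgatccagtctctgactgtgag
Ifit1: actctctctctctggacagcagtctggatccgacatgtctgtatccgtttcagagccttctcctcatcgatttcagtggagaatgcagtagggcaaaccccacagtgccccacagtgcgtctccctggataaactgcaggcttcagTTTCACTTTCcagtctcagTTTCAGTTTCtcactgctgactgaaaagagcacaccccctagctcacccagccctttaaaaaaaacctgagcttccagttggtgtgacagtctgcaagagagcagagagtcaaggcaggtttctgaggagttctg

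Genes of the ribosomal proteins moved as a block of small changes. Of 81 cytosolic ribosomal protein genes 71 rose and none fell, with a median log2 fold change of 0.44, or 0.32 under library totals, where 62 rose. Rpl5 and Rpl10, of the large subunit, rose by 0.85 and 0.85, and Rpsa, of the small subunit, by 0.70, with 26.9%, 36.9% and 31.0% of their 31-base words found in other genes, pseudogenes among them. Genes that build ribosomes did not follow, with 6 of 43 higher and 17 lower (median -0.23). Rrp9, a component of the small nucleolar particle, was at 3.89, 3.71 and 3.82 CPM in the restricted mice against 7.59, 8.04 and 6.80 in controls (-0.97), Nhp2, of the pseudouridine-adding particle, fell by 0.68, and Polr1b, a subunit of RNA polymerase I, fell by 0.46, while Npm1, the abundant nucleolar chaperone, rose by 0.50. Of 13 brakes on the growth kinase mTORC1, 4 rose and 3 fell (median 0.28), and 4 and 4 under library totals. Ddit4 (REDD1, chr10:59949669-59951834), an inhibitor of mTORC1 induced by glucocorticoids and stress, was at 2.46, 3.01 and 2.69 CPM in controls and 122, 133 and 158 on restriction (5.66 ± 0.14, adjusted p = 9.98e-06). Sesn2, a leucine sensor upstream of mTORC1, rose by 1.75, and Tsc1, of the complex that holds mTORC1 inactive, by 0.59.

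Protein quality control was uneven. Proteasome subunits were lower in 17 of 33 cases and higher in 1 (median -0.19), and 11 were called without CR mouse 3, control mouse 1 or control mouse 2. Psmd14, a deubiquitinase of the lid, fell by 0.67 and Psmd2, of the base, by 0.61. In the endoplasmic reticulum 15 of 35 folding and stress genes rose and 4 fell (median 0.20), or 13 and 8 under library totals. Xbp1, the transcription factor of the unfolded protein response, was at 105, 79.7 and 66.1 CPM on restriction and 256, 262 and 214 CPM in controls (-1.54), with Derl3 and Sdf2l1, of degradation and folding, falling by 3.71 and 1.54, while Herpud1, also of degradation, rose by 1.17 and the chaperone Hspa5 (BiP) by 0.48. Of 25 heat shock genes 15 rose and none fell (median 0.29), 10 and 3 under library totals. Hsph1 (1.39) and Dnajb1 (0.78), cochaperones of HSP70, were among those that rose. The cold-inducible RNA-binding proteins parted, Cirbp falling by 0.83 and Rbm3 rising by 0.61. Nuclear genes of oxidative phosphorylation lay close to 0, with 16 of 73 higher and 1 lower (median 0.10). Under library totals 2 were higher and 3 lower and the median was -0.02, and 4 were called without CR mouse 2 or control mouse 2, 7 without control mouse 1, 5 without control mouse 3 and 10 without the count filter or with a replicate block. The mitochondrial transcript mt-Co1, which shares 63.9% of its 31-base words with other genes, was at 0.22 (adjusted p = 0.132) and was called at 0.31 without CR mouse 2. Autophagy and lysosome genes were balanced, 11 higher and 9 lower of 45 (median 0.01), 6 and 15 under library totals, 9 and 10 without control mouse 3, 15 and 9 without CR mouse 1 and 13 in all without CR mouse 2. The median was below 0 under library totals and without control mouse 3 or CR mouse 1. Map1lc3b, of the autophagosome membrane, rose by 0.49, Bnip3, a mitophagy receptor, by 0.70, Atg2b, a lipid transfer protein, by 1.02, and Wipi1, which binds early autophagosome membranes, fell by 0.69.

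Among secreted signals and the leptin receptor, 10 of 23 genes rose and 5 fell (median 0.33). Lepr (chr4:101717404-101815352), whose soluble form binds circulating leptin, was at 219, 225 and 268 CPM in the restricted mice against 27.4, 28.8 and 30.5 in controls, an 8-fold rise with little spread (3.04 ± 0.10, adjusted p = 1.72e-05). Inhbe, the hepatic activin E subunit that acts on fat tissue, was at 72.9, 71.7 and 99.6 CPM in controls and 13, 12.0 and 8.80 on restriction (-2.86), and Serpina12 (vaspin), an adipokine and serpin, fell by 2.60. Gdf15, a stress hormone, stood at 1.65, 1.92 and 7.24 CPM on restriction and 0.952, 0.759 and 0.922 CPM in controls; its log2 fold change of 2.03 fell to 1.03 without CR mouse 3, and the call was lost without any control mouse (1.94 to 2.09). Enho, the precursor of adropin, was at -0.10 (adjusted p = 0.765). In iron handling 9 of 20 genes rose and 3 fell (median 0.30). Hamp2 and Hamp, the hepcidin genes, rose by 2.95 and 0.95, with 23.1% and 33.7% of their 31-base words shared with another gene. Id1, an HLH inhibitor downstream of BMP signals like hepcidin, was at 15.6, 18.4 and 13.5 CPM in the restricted mice against 3.21, 3.77 and 3.48 in controls (2.18), and Tfrc, the transferrin receptor, rose by 1.40. Of 15 genes of NAD synthesis and the sirtuins 3 rose and 7 fell (median -0.23), with Nmnat3, a mitochondrial NAD synthase, falling from 8.17 to 2.05 CPM on average, Qprt, of synthesis from tryptophan, at -1.07 and Nampt, of the salvage route, at 0.39, a call lost with library totals. Sirt5 is listed at 0 in all 6 libraries, as are the general genes Nolc1 and Atp5g2, named for this reason, so a 0 in these tables is not read as absent expression.

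Immediate early and Id genes were higher in 15 of 19 cases and lower in none (median 0.89). Egr1 was at 2.53, 1.99 and 1.74 CPM in controls and 6.64, 9.19 and 9.59 on restriction (2.02), Klf6 rose by 1.40, Fos by 1.47 and Jun by 1.48, the last not called without control mouse 2 (1.30) or 3 (1.41). Nr4a1, an orphan nuclear receptor induced by glucagon and stress, was highest by far in CR mouse 3, at 2.47, 3.45 and 29.8 CPM on restriction and 0.802, 0.838 and 0.738 CPM in controls. Its log2 fold change was 3.90 with that mouse and 1.91 without it, and without any of the controls the call was lost (3.86 to 3.94).

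Hepatocytes differ in their genes along the lobule, from the portal tract to the central vein. Of 17 periportal genes 10 rose and 2 fell (median 0.48), with Etnppl, a phosphoethanolamine lyase, at 1.29, and Cyp2f2, a periportal P450, at -1.25. The urea cycle genes are periportal too. Of 17 pericentral Wnt-dependent genes 4 rose and 5 fell (median -0.28), shares near those of all genes, and 4 rose and 3 fell without CR mouse 3, control mouse 2 or control mouse 3. Glul, the glutamine synthetase of the last cells before the vein, fell by 0.46, a call lost without CR mouse 3, control mouse 2 or control mouse 3 (-0.35 to -0.43), Tuba8, a tubulin, rose by 2.38, and Lgr5, a Wnt coreceptor, was at 0.09 (adjusted p = 0.782), while Znrf3, which removes Wnt receptors, rose by 1.08. Matrix genes numbered 5 higher and 3 lower of 25 (median -0.18), 3 and 6 under library totals, 4 and 6 without CR mouse 1, 3 and 4 without control mouse 3, and 4 in all without CR mouse 3 or control mouse 1. The median turned to 0.02 without control mouse 2, and a replicate block left 4 higher and 1 lower. Col15a1, a basement membrane collagen, was at 1.22, 1.17 and 1.34 CPM in the restricted mice against 9.52, 9.24 and 9.33 in controls (-2.91), and Col1a1 fell by 1.52 with the call lost in 4 of 6 fits without a mouse (-0.99 to -1.68). Cell division genes were low in all livers, with 6 higher and 7 lower of 28 (median -0.27), and 2 and 4 without CR mouse 2, 4 and 3 without CR mouse 3, and 3 and 2 without control mouse 2. Mcm2, a replicative helicase subunit, fell by 0.75, while Pcna, the sliding clamp, rose by 0.66 and Rrm2, of nucleotide supply, by 0.78.

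Transcripts of other liver cells moved too, and in bulk tissue fewer cells of a type and less RNA per cell cannot be told apart. The 8 endothelial markers summed to 271, 268 and 317 CPM on restriction and 164, 206 and 215 CPM in controls, 6 of them higher and none lower (median 0.56), with Stab1 the most abundant. Lyve1, of sinusoidal endothelium, rose by 0.98 and Clec4g, a sinusoidal lectin, by 0.66. Of 7 stellate cell markers 3 rose and none fell (median 0.37), 1 under library totals and 1 without control mouse 3, with 1 higher and 1 lower without control mouse 2, with sums of 276, 246 and 279.6 against 216, 195 and 173 CPM and Ecm1 at the top. The 12 Kupffer and myeloid markers showed 1 fall (Cd5l, -0.50, called in 1 of the 6 fits without a mouse), at 142, 222 and 202 against 215, 183 and 224 CPM, Clec4f being the most abundant. Without CR mouse 1, the lowest, 2 of them rose and none fell, and without CR mouse 2 none rose and 2 fell. Of 6 tested markers of antigen-presenting cells 3 fell and none rose, all of them major histocompatibility class II genes or their chaperone Cd74 (-0.50), with sums of 49.9, 55.4 and 49.3 against 73.9, 75.2 and 75.9 CPM. The fall of these genes runs beside that of the interferon list, and their part in it was not tested. Of 4 tested B cell markers Cd79a and Cd79b fell (-3.78 and -2.13, Cd79a -4.56 without CR mouse 3) from means of 1.04 and 1.04 CPM, named as the only 2 that did, and none was called among genes of at least 1 CPM. Cholangiocyte markers counted 2 higher of 5 tested at sums of 58.8, 38.4 and 38.9 against 49.1, 47.0 and 47.8 CPM, with Spp1 at the top and Epcam at 0 counts. Erythroid markers varied between mice, from 207 to 590.0 CPM on restriction and 465 to 1091 in controls with Hbb-bs at the top, and Alas2, of erythroid heme synthesis, fell, at 89.6, 100.3 and 113 CPM in controls and 15.6, 9.92 and 15.3 on restriction (-2.89), with 2 lower under library totals or without CR mouse 3. Of the adipocyte markers Fabp4 alone was tested and rose (1.12), while Lep, Plin1 and Retn had no count.

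**Figure D2:**
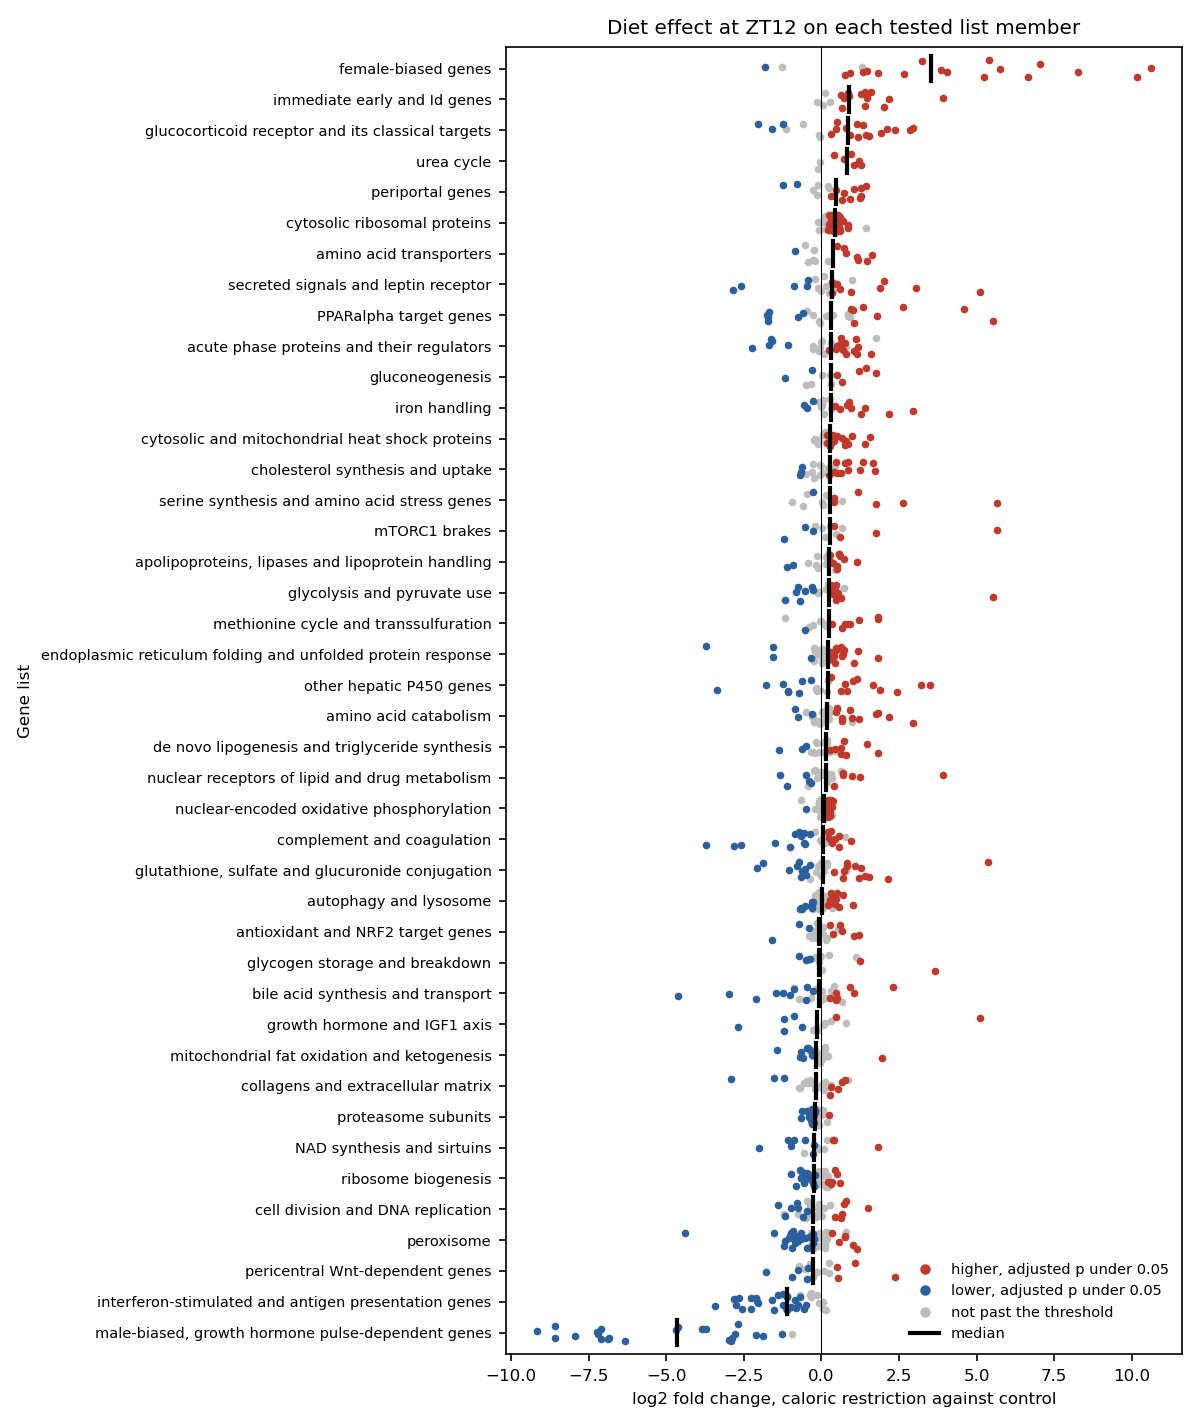
Log2 fold change on caloric restriction for each tested member of 42 gene lists (x axis), the lists being ordered by their medians (black lines), with red and blue points for genes higher or lower past an adjusted p of 0.05 and grey points for the rest. Male-biased genes (median -4.66) and interferon-stimulated genes (median -1.12) lie lowest and female-biased genes (median 3.54) highest.

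Restricted and control livers were sampled at the same hour in the time series, in other mice and at a lower depth of 11408194 to 20788575 counts. Of 11550 genes tested there 38.1% were called, 18.7% higher and 19.4% lower. Of the 11466 genes tested in both experiments, 5777 were called here and 4374 there, and 2773 were called in both with the same direction, 48.0% of the calls here and 63.4% of those there, while 138 were called in both with opposite directions. The sign was shared by 85.5% of the genes called here and by 73.8% of all genes tested in both. Of 23 male-biased genes that fell here and were tested there, 22 had the same sign, and all 14 called female-biased genes tested there did. The exception was Elovl3, a fatty acid elongase, at -2.88 here and 0.47 there. Its fall here was -4.82 without CR mouse 1 and -2.27 without CR mouse 2, and the call was lost with DESeq2 and in 4 of 6 fits without a mouse (-2.56 to -3.04). Cux2 rose by 5.41, and Mup20 and Hsd3b5 fell by 3.66 and 5.13. Lepr (2.94), Nudt7 (-3.47) and Serpina12 (-3.52) also passed the test in both.

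Some genes and the counts of other groups did not look alike, and no difference between the experiments was tested. In the time series Fasn had a log2 fold change of -2.07 (adjusted p = 0.0025) where it rose here, and Dusp1 one of -0.56 (adjusted p = 0.0383). Mt1 and Mt2 rose there by 2.83 and 3.82. Cpt1a was at 0.43 there (adjusted p = 0.0421) and fell here, and of the fat oxidation genes 11 were higher and 2 lower in the time series, against 1 and 8 here. Endoplasmic reticulum genes were 4 higher and 18 lower there, against 15 and 4 here (13 and 8 under library totals). Sterol genes were 1 and 6 there against 12 and 3 here (11 and 6 under library totals). Lipogenic genes were 5 and 7 there against 8 and 3 here, but 6 and 7 here under library totals. Immediate early and Id genes were 2 higher and 4 lower there, against 15 and none here. Antioxidant and NRF2 targets were 3 higher and 9 lower there, against 6 and 3 here, or 4 and 10 here under library totals. Of the 9 called here, 8 had the same sign there. The balance of calls also turned for bile acid genes (6 higher and 4 lower there) and glycogen genes (3 and 2). Yet all 17 bile acid genes called here and tested there had the same sign, as did 3 of 5 glycogen genes. Nuclear receptors were 6 and 7 there and pericentral genes 4 and 3, balances that also turned here under library totals or without a mouse. Of the members called here, 10 of 11 nuclear receptors and 8 of 9 pericentral genes had the same sign there. Ribosomal protein genes were 27 higher and 9 lower there, with a median of 0.09 against 0.44 here. Heat shock genes were 10 higher and 2 lower there (median 0.07), and 9 of the 15 called here had the same sign. Hsph1 and Dnajb1 were at -0.13 and 0.02 there.

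**Figure D3:**
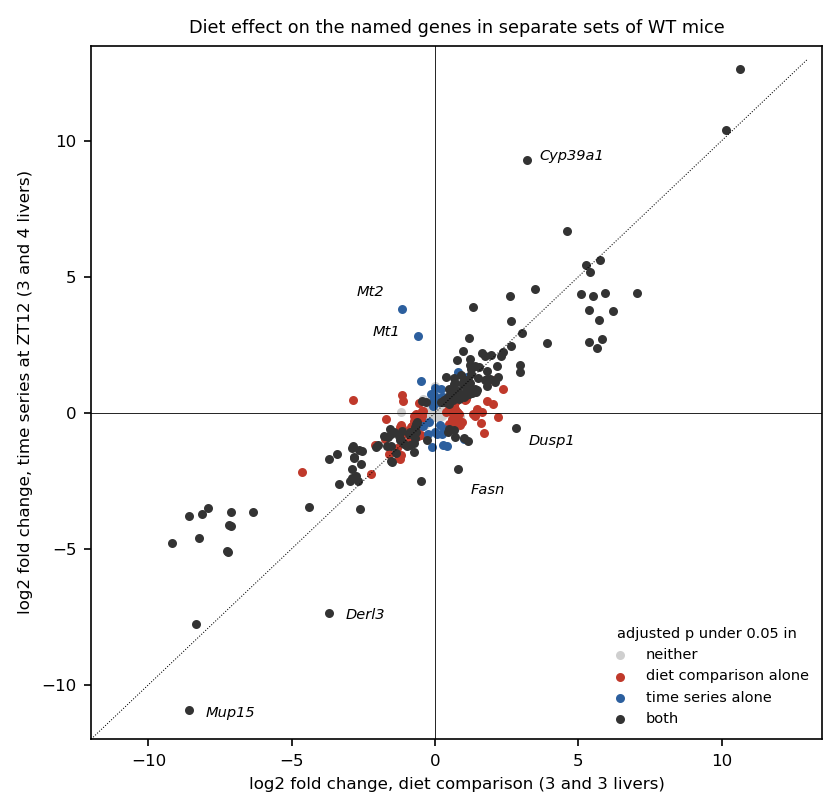
Log2 fold change on caloric restriction at ZT12 in the diet comparison (x axis, 3 and 3 livers) and in the time series (y axis, 3 and 4 livers) for the 305 genes of the naming rule tested in both, coloured by where the adjusted p was under 0.05, with a dotted line of equal values. Of the 164 genes called in both, 154 lie on the same side of 0 and 10, such as Fasn, on opposite sides.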

How the data were processed

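Livers were sequenced from poly(A)-selected RNA (100 bp, paired-end). The labels give an Illumina TruSeq kit and the study's methods add a stranded Illumina kit, so that the strandedness of these libraries is not settled. Per the study's methods, the authors counted reads with Salmon 1.8.0 and deposited gene-level estimated counts made with tximport, without stating the annotation release or strand setting. Sense and antisense transcripts, and paralogs with shared sequence, may exchange counts. The deposited values were rounded and tested with edgeR's quasi-likelihood test (edgeR 4.0.16, R 4.3.3) after TMM scaling and filterByExpr (minimum count 10), with Benjamini-Hochberg adjustment over all genes tested, and a gene was called under 0.05. The model held diet alone. At this depth 3 counts correspond to 0.0795 CPM. Alternatives were DESeq2 1.42.0, RLE size factors, library totals, other filters, a replicate block and leaving out each library.

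Named genes were the 12 largest rises and falls without overlap, genes marked in each list, up to 3 called members per list and the 10 most abundant genes per diet. Members and lists were chosen with earlier results of these data known. Coordinates are from GENCODE M21 (GRCm38) by gene identifier, promoters from RefSeq.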

Additional observations from a re-analysis of the deposited data

Results flagged for a closer look

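Among the genes named in the text or plots, 11 were such that every restricted mouse lay on one side of every control in the diet comparison and on the opposite side in the time series, and the difference between the experiments was not tested. In lipid metabolism the log2 fold changes were 0.79 against -2.07 in the time series for Fasn, 0.44 against -0.72 for Acly, which makes cytosolic acetyl-CoA, and 0.24 against -0.80 for Apoe, an apolipoprotein. Among transcription factors they were 0.71 against -0.90 for Cebpb, 1.14 against -1.02 for Cebpd, both of the acute phase, 0.28 against -1.18 for Ier2, an immediate early gene, and -0.08 against 0.25 for Nr3c1. The chaperone genes Hspa1b and Creld2 were at 1.00 against -0.91 and 0.67 against -0.62, the autophagy kinase Ulk1 at 0.58 against -0.23, and the alanine aminotransferase Gpt2 at -0.30 against 0.39.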

How the results depend on the processing

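The number of genes called in the diet comparison was 6012 with DESeq2, 6150 with RLE size factors, 6300 with library totals, 5789 without the filter, 5846 at a mean of at least 1 CPM and 4512 to 6471 without a library. A block on the replicate number gave 5686, but the numbers pair no mice (correlations of same-numbered residuals -0.0416, -0.0625 and 0.114). In the time series 4433 genes were called with DESeq2, 3192 with the block and 3265 to 4087 without a library. Of 175 called genes named in the text and plots, 161 kept the call without any library. Of the genes not called, Mt2 gained a call with the block, Apoe with DESeq2 and without CR mouse 1, and Ier2 without control mouse 1. Acly lost its call with library totals, with the block and in 4 fits without a library, and Gpt2 with the block and in 5. The block also ended the calls of Col1a1, Cd5l and Elovl3, DESeq2 that of Elovl3, and RLE size factors and the missing filter that of Cd5l. The time-series libraries turned the sign of Elovl3 (0.47), Cpt1a (0.43), Acaca (-0.38), Fasn (-2.07), Insig1 (-0.040), Pcx (1.18), Nr3c1 (0.25), Mt1 (2.83), Mt2 (3.82), Hspa5 (-0.43), Hsph1 (-0.13), Hamp (-0.34), Id1 (-0.14), Dusp1 (-0.56), Acly (-0.72), Apoe (-0.80), Gpt2 (0.39), Cebpb (-0.90), Cebpd (-1.02), Creld2 (-0.62), Hspa1b (-0.91), Ulk1 (-0.23) and Ier2 (-1.18), where at least 1 of the values passed the test. A further 35 named genes kept the sign there without a call, among them Slco1a1, Bcl6 and Cyp8b1. Another 3 not called here, Ppara, Enho and mt-Co1, were called there. The cause of these differences was not tested. Depth limits the genes near 0, where 3 counts stand for 0.0795 CPM.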
